A study of Mus musculus with 27 samples.

Results

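The 10 genes described here encode SR splicing factors: Srsf1, Srsf2, Srsf3, Srsf4, Srsf5, Srsf6, Srsf7 and Srsf11 and the related Tra2a and Tra2b. They were taken by gene symbol from the deposited table and make up 10 of its 53379 Ensembl gene IDs. All 10 were among the 20611 genes tested, which had 1 TPM or more in 3 or more libraries. TPM is a level per transcript length in which every library sums to the same total. RNA with a poly(A) tail was sequenced from the mouse embryonic stem cell line E14, grown with LIF on gelatin, after siRNA transfection and separation into chromatin (CH), nucleoplasm (NP) and cytoplasm (CY). The first treatment, siPTBP1, was siRNA against Ptbp1. The next, siPTBP1+siPTBP2 or double knockdown, was siRNA against Ptbp1 and Ptbp2 together, and the control, siGFP, was siRNA against eGFP. All 3 treatments, the control included, were transfected on 2 occasions 24 h apart and taken at 48 h. The 9 combinations of treatment and fraction had 3 libraries each, 27 in all, which the series calls biological replicates without saying what a replicate number stands for. The study addressed introns retained under the control of PTBP1, a protein that binds pyrimidine tracts and mostly represses exons. A gene's TPM counts spliced and unspliced RNA together.

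SR proteins carry an RNA recognition motif and a domain rich in arginine and serine dipeptides. They bind enhancer sequences in exons, help the spliceosome find splice sites, and move between speckles and splicing sites as kinases of the SRPK and CLK families phosphorylate them. Srsf1 (ASF/SF2) is the founding member, Srsf2 (SC35) is a classic speckle protein, and Srsf3 and Srsf7 are known as adapters of the export receptor NXF1. Srsf11 is known to bind the U2AF splicing factor, and Tra2a and Tra2b are counterparts of the Drosophila sex determination factor Transformer-2. Many SR genes limit their own output: the protein promotes inclusion of an exon with an early stop codon, called a poison exon, or retention of an intron, and the RNA is then degraded by nonsense-mediated decay or kept in the nucleus.

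In GENCODE M21 on GRCm38 (mm10) all 10 genes had at least 1 annotated transcript with a retained intron and at least 1 annotated as a target of nonsense-mediated decay. Of the 14240 tested protein-coding genes 55.6% had the first kind, 27.2% the second and 21.1% both. Srsf11 (chr3:158010473-158036639, minus strand) had 11 retained-intron transcripts among its 19. The exons below are internal exons of decay-annotated transcripts that hold the early stop codon and overlap no exon of the gene's coding transcripts. By that rule 6 of the genes had such an exon, Srsf11 had 2 and Tra2b had 1 in a shorter and a longer form with the same start, of which the shorter is printed. They are shown because exons of this kind are the family's known means of self-limitation. Each is printed 5′ to 3′ in the direction of the gene, starting at the exon's first base and ending with the stop codon, which is in capitals. The Srsf3 exon lies at chr17:29039454-29039909 on the plus strand and is 456 nt long. The Srsf4 exon lies at chr4:131884276-131884482 on the plus strand and is 207 nt long. The Srsf7 exon lies at chr17:80204622-80205081 on the minus strand and is 460 nt long. The Srsf11 exons lie at chr3:158024123-158024231 and chr3:158023243-158023359 on the minus strand and are 109 nt and 117 nt long. The Tra2a exon lies at chr6:49252803-49253108 on the minus strand and is 306 nt long. The Tra2b exon lies at chr16:22258986-22259261 on the minus strand and is 276 nt long. The stop codon ends 144 nt into the exon in Tra2a, 115 nt in Srsf4, 81 nt in Tra2b, 50 nt and 23 nt in the Srsf11 exons, 34 nt in Srsf3 and 28 nt in Srsf7. The Tra2a and Tra2b exons open with the same 9 bases, gttaatgtt. The deposited gene values do not separate transcripts with these exons from those without, so their inclusion was not analysed here.
Srsf3-201: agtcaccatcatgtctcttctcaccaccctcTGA
Srsf4-203: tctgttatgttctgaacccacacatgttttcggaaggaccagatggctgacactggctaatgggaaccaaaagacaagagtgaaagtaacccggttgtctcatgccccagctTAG
Srsf7-203: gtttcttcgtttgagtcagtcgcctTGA
Srsf11-206: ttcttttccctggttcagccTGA
Srsf11-212: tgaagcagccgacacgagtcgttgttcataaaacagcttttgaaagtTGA
Tra2a-202: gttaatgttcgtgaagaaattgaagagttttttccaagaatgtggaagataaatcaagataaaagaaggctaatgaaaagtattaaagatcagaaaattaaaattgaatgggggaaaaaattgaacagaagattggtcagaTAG
Tra2b-206: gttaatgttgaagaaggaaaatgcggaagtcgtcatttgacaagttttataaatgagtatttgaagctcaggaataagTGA

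Ptbp1 itself fell in NP and CY of both knockdowns, which checks the labels. On the log2(TPM + 1) scale its difference from siGFP after siPTBP1 was -1.89 in NP (adjusted p = 0.00375) and -2.15 in CY (adjusted p = 0.000853). For the double knockdown it was -1.90 in NP (adjusted p = 0.00478) and -1.99 in CY (adjusted p = 0.00249). It was not called in CH unless replicate number was a block in the model. Ptbp2 was called in NP of the double knockdown only with that block. In CY Ptbp2 had 1.45, 7.29 and 7.55 TPM in the double knockdown, against 3.52, 15 and 15.45 TPM in siGFP. Each of these knockdown libraries lay below the siGFP library of its number. Adjusted p-values throughout are Benjamini-Hochberg values over all 20611 genes from limma, and a gene is called when its value is under 0.05. All 10 pluripotency markers reached 1 TPM in every group and summed to 1623 to 4739 TPM, against sums of 6.68 to 154.8 TPM for 7 fibroblast markers, 3.64 to 22.8 TPM for 6 primitive endoderm markers, 81.96 to 300 TPM for 7 neural markers and 11.29 to 72.14 TPM for 5 muscle markers. The fractions differed in the direction of their names: 6 of 6 nuclear RNAs, Malat1 and Neat1 among them, were called higher in CH than in CY of siGFP, and 4 of 5 cytoplasmic mRNAs were called lower. Mitochondrially encoded RNA took 0.511% to 1.68% of the TPM in CH, 9.31% to 22.5% in NP and 0.0416% to 0.111% in CY. The libraries held 11837 to 19509 genes at 1 TPM or more, and their read depth is unknown. The replicate 1 library of the double knockdown in CY stood apart, with the fewest such genes and 8.31% of its TPM in the single gene Mir6236. Results that rest on it are therefore given with and without it. The other CY replicate 1 libraries leaned the same way, with 7.06% in siGFP and 5.79% in siPTBP1. Replicates 2 and 3 in CY had 3.48% to 4.31%.

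The 10 genes were well expressed in every fraction, and together they took 0.0769% to 0.417% of a library's TPM. Their summed level averaged 3303 ± 1080 TPM in CH of siPTBP1, 3211 ± 1189 TPM in CH of the double knockdown and 3115 ± 1243 TPM in CH of siGFP (SD, n = 3 each). In NP the sums were 1348 ± 356 TPM in siPTBP1, 1365 ± 359 TPM in the double knockdown and 1733 ± 421 TPM in siGFP. In CY they were 2137 ± 712 TPM in siPTBP1, 1839 ± 934 TPM in the double knockdown and 1987 ± 746 TPM in siGFP. The NP mean was the lowest of the 3 fractions in each treatment, but the order of NP and CY depended on mitochondrially encoded RNA in the total in siGFP. Without those genes, an alternative chosen after seeing the data, NP averaged 1634 ± 518 TPM in siPTBP1, 1694 ± 490.4 TPM in the double knockdown and 2002 ± 529.5 TPM in siGFP, against 2138, 1841 and 1989 TPM in CY of the same treatments. The ranges of mean ± SD of NP and CY overlapped in every treatment with either total. Replicate 1 was lower than replicates 2 and 3 for most genes in most groups, and the SDs within groups were large. In these bulk samples fewer cells with a transcript and less of it per cell cannot be told apart, and nor can more of a transcript and less of everything else.

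The order of the genes by level changed between the fractions. In CH of siGFP Srsf5 was highest at 536.6 ± 232.5 TPM, before Srsf2 at 509.7 TPM, Srsf1 at 417.7 TPM, Srsf11 at 417.1 TPM, Srsf6 at 279.3 TPM, Srsf3 at 236.7 TPM, Tra2a at 234.5 TPM, Srsf7 at 230.6 TPM, Tra2b at 153.8 TPM and Srsf4 at 98.9 TPM. In CY of siGFP Srsf2 was highest at 428.9 TPM, before Srsf3 at 428.1 TPM, Srsf1 at 324.2 TPM, Srsf6 at 183 TPM, Srsf5 at 152.6 TPM, Srsf7 at 139.4 TPM, Tra2b at 138.1 TPM, Tra2a at 70.64 TPM, Srsf11 at 63.73 TPM and Srsf4 at 58.35 TPM. Srsf11 therefore held the fourth place in CH and the ninth in CY, whereas Srsf3 held the sixth and the second. Neighbours in these orders differed by less than the larger of their SDs, apart from Tra2b and Tra2a in CY. Reads of near-identical family members and of overlapping genes may be shared: Srsf11 overlaps Gm43362 on its own strand, which no strand setting would resolve, and Srsf4 overlaps 1 gene on its own strand and 1 on the other (A930004J17Rik and Gm12992). On the opposite strand Srsf2 overlaps Mettl23 and Mfsd11, Srsf1 overlaps Gm11508 and Tra2a overlaps Gm43980, and the sources used here do not say which strand setting the quantification had.

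**Figure D1:**
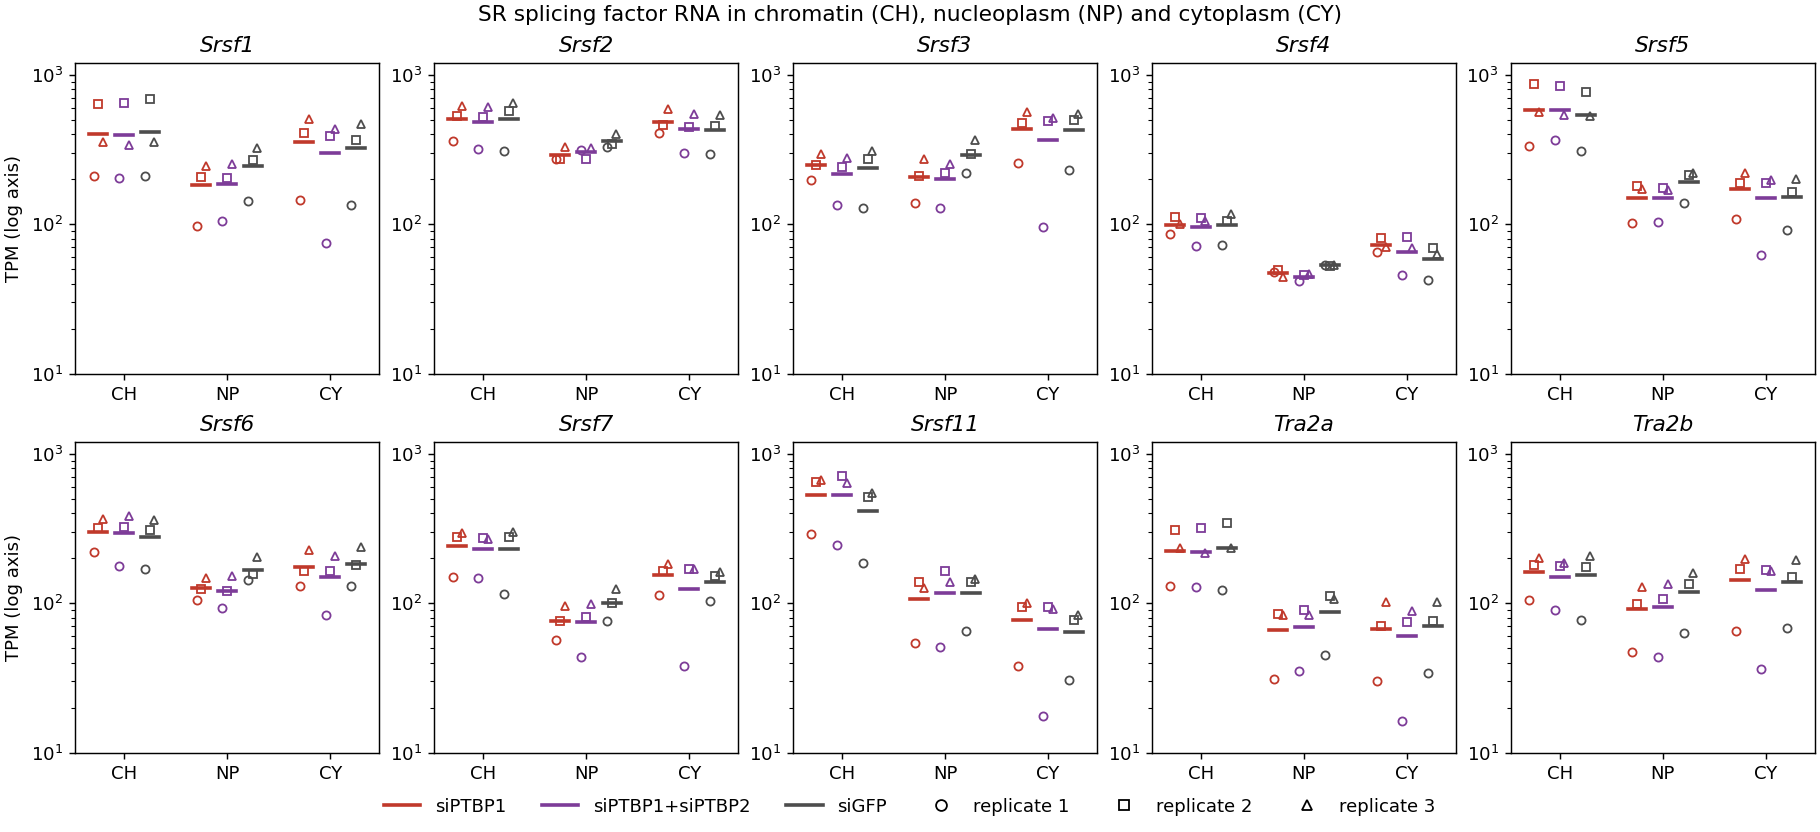
Levels of the 10 SR factor genes in TPM (log axis) in CH, NP and CY, with a colour for each siRNA treatment, a marker shape for each replicate number and a bar at each group mean of 3 libraries. Srsf11 had its highest siGFP mean in CH at 417.1 ± 199.6 TPM, against 63.73 ± 28.9 TPM in CY, and Srsf3 had its highest siGFP mean in CY at 428.1 TPM.

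Chromatin was set against cytoplasm to ask where the polyadenylated RNA of each gene lay. In siGFP cells Srsf11, Srsf5, Tra2a and Srsf4 were called higher in CH than in CY and none was called lower. That is 4 of 10, beside 57.9% of all genes called higher and 8.08% called lower. The 10 differences had a median of 0.61 on the log2(TPM + 1) scale, against 0.95 over all tested genes and 0.35 over the 3292 genes that averaged at least 50 TPM.

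Srsf11 had 187.21, 517.65 and 546.34 TPM in CH of siGFP replicates 1 to 3, against 30.54, 77.19 and 83.45 TPM in CY. Every CH library lay above every CY library, and replicate 1 was the lowest of each. The CH level was 6.13, 6.71 and 6.55 times the CY level of the same replicate number, a narrow range despite the spread in level. The difference was 2.67 on the log2 scale (SE 0.66, adjusted p = 0.00136). In siPTBP1 it was 2.79 (adjusted p = 0.000906). The double knockdown had 3.14 (adjusted p = 0.000267), so the gene was called in every treatment. Its ratios of CH to CY were 7.60, 6.82 and 6.59 in siPTBP1 and 13.9, 7.52 and 7.08 in the double knockdown, whose highest ratio came from the CY library that stood apart.

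Srsf5 (chr12:80945504-80950507, plus strand) had 308.52, 773.37 and 528 TPM in CH of siGFP, against 91.08, 165.67 and 200.96 TPM in CY, with no overlap between the fractions. The difference was 1.78 (SE 0.47, adjusted p = 0.00216). Tra2a had 123.05, 345.01 and 235.46 TPM in CH, against 34.16, 76.08 and 101.68 TPM in CY, again without overlap. Its difference was 1.73 (SE 0.64, adjusted p = 0.0214). Srsf4, the lowest of the 10 in both fractions, had 72.81, 105.98 and 117.92 TPM in CH, against 42.36, 69.38 and 63.31 TPM in CY. All its CH libraries exceeded its CY libraries, and the difference was 0.75 (SE 0.23, adjusted p = 0.00639).

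The export adapter gene Srsf3 was the only gene of the 10 with a negative value in siGFP. It had 128.37, 272.55 and 309.16 TPM in CH, against 231.53, 502.42 and 550.46 TPM in CY. Replicate 1 was low in both fractions and they overlapped, while the ratio of CH to CY within a replicate number was 0.554, 0.543 and 0.562. Its difference of -0.85 (SE 0.53) was not called (adjusted p = 0.16) but was with replicate number as a block (adjusted p = 0.00447). Srsf7, the other adapter gene, had a difference of 0.63 and Srsf6 one of 0.58. Neither was called without the block, and both were with it (adjusted p = 0.0191 for Srsf7 and 0.00157 for Srsf6). Srsf1 (0.38), Srsf2 (0.22) and Tra2b (0.17) were called in neither fit.

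With the block 6 of the 10 were called higher in CH than in CY of siGFP and 1 lower, beside 65.4% and 11.5% of all genes. How the libraries are scaled moved these values. Median-ratio scaling lowered the all-gene median to 0.56 and that of genes averaging at least 50 TPM to -0.34. On that scale the 10 genes had a median of -0.08, Srsf5 (1.10) and Srsf11 (1.99) were called higher, Srsf3 (-1.54, adjusted p = 0.00252) was called lower, and Srsf1, Srsf2, Srsf6, Srsf7 and Tra2b turned negative, while 45.3% of all genes were called higher and 15.8% lower. Srsf5 and Srsf11 were also the members called after quantile scaling, at 1.79 and 2.37, where 23.9% of all genes were called higher, the all-gene median was -0.12 and Tra2b turned negative. Their higher level in CH and the negative sign of Srsf3 were thus shared by all 3 scalings.

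The same comparison in knockdown cells called 3 of 10 higher in siPTBP1, beside 57.8% of all genes, and 6 of 10 higher in the double knockdown, beside 60.4%. Srsf5 was at 1.71 in siPTBP1 and 2.05 in the double knockdown, and Tra2a was at 1.80 in siPTBP1 and 2.08 in the double knockdown. The 3 further calls of the double knockdown were Srsf7 (1.10, adjusted p = 0.0477), Srsf6 (0.99, adjusted p = 0.0187) and Srsf4 (0.56, adjusted p = 0.0353). Without the replicate 1 library of the double knockdown in CY the count there was 3 of 10. The all-gene share of that fit is not given here, so this count alone does not set the members apart. Srsf4 in the double knockdown changed sign under both other scalings. With the block 6 were called higher and 1 lower in siPTBP1, beside 65.2% and 12.4% of all genes, and 7 higher in the double knockdown, beside 66.9%.

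**Figure D2:**
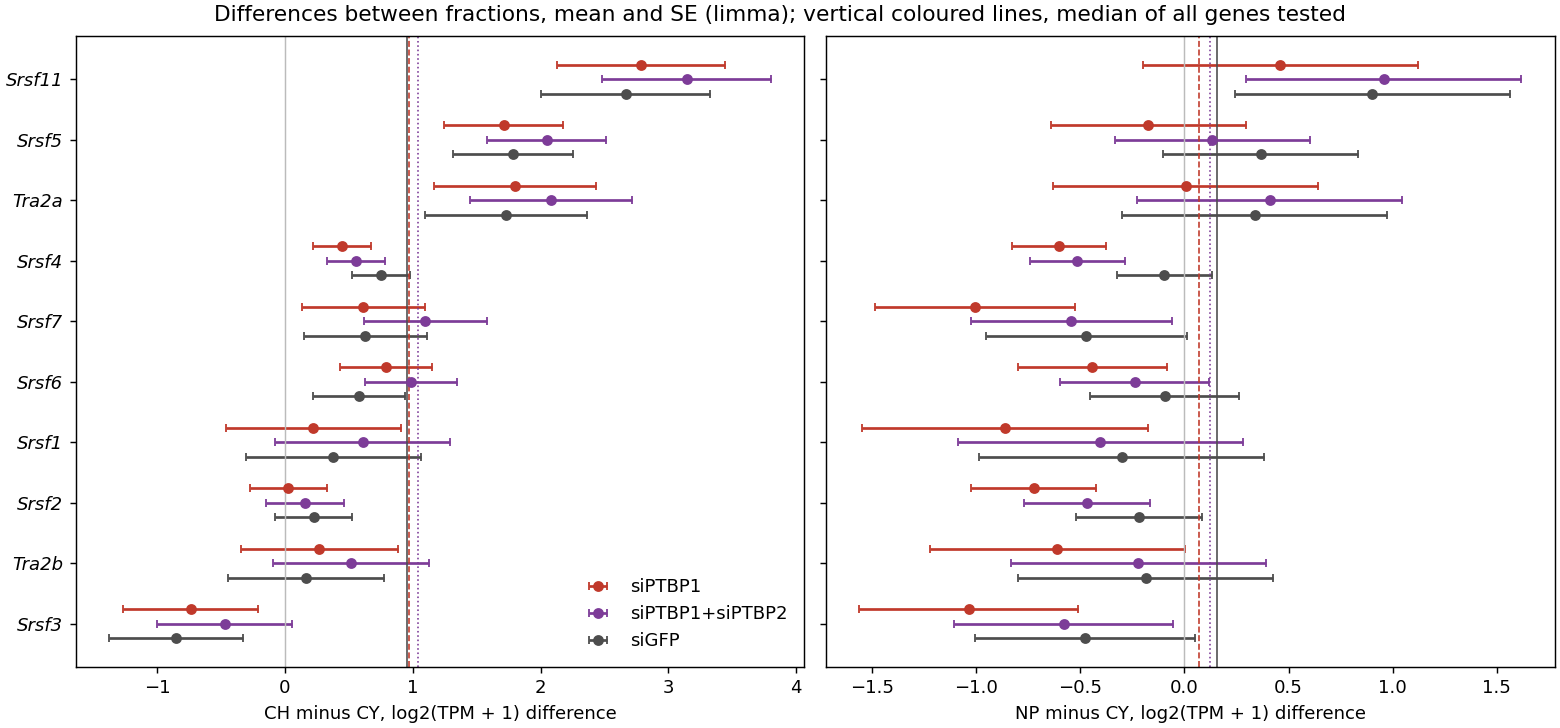
Differences between fractions on the log2(TPM + 1) scale, CH minus CY on the left and NP minus CY on the right, for each gene and treatment, with standard errors from the limma fit on 3 libraries a group and vertical lines at the medians over all tested genes. Srsf11 lay farthest to the right in CH minus CY at 2.79 in siPTBP1, 3.14 in the double knockdown and 2.67 in siGFP, and Srsf3 lay at -0.85 in siGFP.

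Chromatin was next set against nucleoplasm. In siPTBP1 7 of 10 were called higher in CH, beside 51.4% of all genes: Srsf11 (2.33), Srsf5 (1.89), Tra2a (1.79), Srsf7 (1.62), Srsf6 (1.23), Srsf4 (1.05) and Srsf2 (0.75). The same genes apart from Srsf2 were called in the double knockdown, 6 of 10 beside 51.9%. In siGFP the called genes were Srsf11 (1.77, adjusted p = 0.0302), Srsf5 (1.42, adjusted p = 0.0151) and Srsf4 (0.85, adjusted p = 0.00372), 3 of 10 beside 46%. With the block 9 were called in siPTBP1 (61.9% of all genes), 9 in the double knockdown (62.1%) and 7 in siGFP (57%). Without the siGFP replicate 1 library of CH 7 were called in siGFP, and without its replicate 2 library of CH or its replicate 1 library of NP 1 was. All-gene shares of these left-out fits are not given here, so these counts alone do not set the members apart from other genes. Under median-ratio scaling 3 were called in siPTBP1 (34% of all genes), 3 in the double knockdown (34.5%) and 1 in siGFP (33.7%), where Srsf2 and Tra2b turned negative, and Srsf3, positive in siPTBP1 at 0.30, turned negative under both other scalings. Rescaling without mitochondrially encoded genes lowered the members' median from 1.16 to 0.92 in siPTBP1. It fell from 1.15 to 0.86 in the double knockdown and from 0.76 to 0.58 in siGFP. Genes averaging at least 50 TPM fell from 0.45 to 0.22 in siPTBP1, from 0.45 to 0.17 in the double knockdown and from 0.25 to 0.08 in siGFP.

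Between nucleoplasm and cytoplasm none of the 10 was called by limma in any treatment. In siPTBP1 13.6% of all genes were called higher in NP and 3.88% lower, in the double knockdown 15.4% and 4.66%, and in siGFP 12.3% and 0.461%. At an unadjusted p under 0.05 the counts were 3 in siPTBP1, 1 in the double knockdown and 0 in siGFP. Of all 20611 genes 3964 passed that threshold as higher and 1940 as lower in siPTBP1. The numbers were 4448 and 2036 in the double knockdown, and 4050 and 614 in siGFP. With the block 7 of 10 were called lower in NP than in CY of siPTBP1, beside 13.5% of all genes: Srsf3 (-1.04, adjusted p = 0.00272), Srsf7 (-1.01), Srsf1 (-0.86), Srsf2 (-0.72), Tra2b (-0.61), Srsf4 (-0.60) and Srsf6 (-0.44). In the double knockdown the block called Srsf11 higher, beside 25.7% of all genes, and Srsf2 and Srsf4 lower, beside 12.5%. In siGFP it called Srsf11 higher at 0.90 (adjusted p = 0.000524), beside 23.5%. The median of the 10 was -0.61 in siPTBP1, -0.32 in the double knockdown and -0.14 in siGFP, against 0.07 in siPTBP1, 0.12 in the double knockdown and 0.15 in siGFP over all genes. Over genes averaging at least 50 TPM the medians were -0.32 in siPTBP1, -0.22 in the double knockdown and -0.08 in siGFP. With mitochondrially encoded genes left out and the rest rescaled the members' medians moved to -0.35 in siPTBP1, -0.02 in the double knockdown with 5 of 10 negative, and 0.06 in siGFP with 6 of 10 positive. The all-gene medians moved up too, to 0.19 in siPTBP1, 0.27 in the double knockdown and 0.26 in siGFP. Genes averaging at least 50 TPM then had -0.07 in siPTBP1, 0.07 in the double knockdown and 0.12 in siGFP.

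The knockdowns were then compared with siGFP within each fraction. No member was called by limma in any of the 6 comparisons, with or without the block, and none had an unadjusted p under 0.05 without it. Without the block 948 of the 20611 genes passed that threshold as higher and 423 as lower in CH of siPTBP1. In NP of siPTBP1 the numbers were 674 and 332, and in CY 712 and 197. The double knockdown had 1075 and 356 in CH, 632 and 449 in NP, and 707 and 316 in CY. Few genes were called at all: 0.398% in CH, 0.16% in NP and 0.228% in CY for siPTBP1, and 0.427% in CH, 0.155% in NP and 0.243% in CY for the double knockdown. With the block the shares were 2.45% in CH, 1.88% in NP and 1.83% in CY for siPTBP1, and 2.12% in CH, 1.84% in NP and 2.65% in CY for the double knockdown. The counts of members at an unadjusted p under 0.05 were then 1 in CH, 2 in NP and 1 in CY for siPTBP1, and 0 in CH, 2 in NP and 1 in CY for the double knockdown. All-gene numbers at that threshold with the block are not given here or below. Such counts alone therefore do not set the members apart from other genes.

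In nucleoplasm all 10 values were below siGFP in both knockdowns, by amounts within the replicate spread of the fit without the block. That spread includes shifts shared by libraries of a replicate number. For Srsf1 after siPTBP1 the SE was 0.69 without the block and 0.30 with it. The median difference was -0.39 after siPTBP1, with a range of -0.52 for Srsf3 to -0.15 for Srsf11. The double knockdown had a median of -0.36. All tested genes had a median of -0.01 after siPTBP1, and genes averaging at least 50 TPM had -0.13 after siPTBP1 and -0.15 in the double knockdown. Within replicate numbers 29 of 30 ratios of siPTBP1 to siGFP were under 1 (0.63 to 1.01), as were 29 of 30 in the double knockdown (0.575 to 1.19). In each knockdown 9 of the 10 were lower in all 3 numbers, beside 25.3% of all genes in either, and beside 44.6% of the genes averaging at least 50 TPM after siPTBP1 and 46.2% of them in the double knockdown. The 2 knockdowns share the siGFP libraries and are not separate evidence.

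Srsf3 had 138.77, 210.25 and 272.08 TPM in NP of siPTBP1 and 127.87, 220.98 and 253.92 TPM in NP of the double knockdown, against 220.14, 293.37 and 366.44 TPM in NP of siGFP. Each knockdown library lay below the siGFP library of its number, while the groups overlapped. The difference after siPTBP1 was -0.52 with a 95% interval of -1.62 to 0.57 without the block. Srsf7 had 56.85, 75.83 and 96.25 TPM in siPTBP1 and 43.92, 80.36 and 98.83 TPM in the double knockdown, against 76.33, 100.32 and 124.41 TPM in siGFP. The groups overlapped, but its ratios of siPTBP1 to siGFP were within 0.745 to 0.774. Srsf6 had 105.78, 125.43 and 147.13 TPM in siPTBP1 and 93.43, 120.04 and 151.63 TPM in the double knockdown, against 143.31, 157.47 and 203.2 TPM in siGFP. It had the smallest unadjusted p of the 10 with the block, 0.0133 for siPTBP1 and 0.005 for the double knockdown, and its 95% interval for siPTBP1 without the block ran from -1.15 to 0.34.

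Srsf2 and Srsf4 had narrow spreads in NP. Srsf2 had 272.35, 274.47 and 330.12 TPM in siPTBP1 and 316.73, 272.3 and 322.29 TPM in the double knockdown, against 327.79, 344.6 and 404.37 TPM in siGFP. All but 1 of the 6 knockdown libraries were below every siGFP library. Srsf4 had 48.08, 49.18 and 44.71 TPM in siPTBP1 and 41.5, 45.54 and 46.38 TPM in the double knockdown, against 53.38, 52.97 and 53.75 TPM in siGFP. No knockdown library reached the siGFP level. Srsf1 had 97.72, 205.99 and 246.58 TPM in siPTBP1 and 105.86, 202.68 and 252.96 TPM in the double knockdown, against 143.17, 269.25 and 322.09 TPM in siGFP. Its groups overlapped, and its 95% interval for siPTBP1 without the block ran from -1.86 to 0.99. Tra2b had 47.39, 99 and 128.25 TPM in siPTBP1 and 43.77, 105.97 and 134.75 TPM in the double knockdown, against 63.53, 134.68 and 158.56 TPM in siGFP, with overlap again. Tra2a had 31.29, 84.21 and 83.08 TPM in siPTBP1 and 34.96, 90.17 and 83.54 TPM in the double knockdown, against 45.19, 111.2 and 107.35 TPM in siGFP, and Srsf5 had 101.75, 179.9 and 171.41 TPM in siPTBP1 and 103.87, 175.98 and 170.33 TPM in the double knockdown, against 138.88, 213.27 and 220.69 TPM in siGFP. Both sets overlapped between groups, with replicate 1 lowest in each. Srsf11 had the smallest difference, with ratios of 0.820, 1.01 and 0.874 in siPTBP1 and 0.779, 1.19 and 0.948 in the double knockdown.

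The negative sign held in all 10 genes after siPTBP1 under median-ratio scaling (median -0.29) and quantile scaling (median -0.33), and in 9 of 10 in the double knockdown (medians -0.24 and -0.27), where Srsf11 turned positive. Mitochondrially encoded RNA took 9.31% to 20.2% of the NP total in siPTBP1 and 15% to 22.5% in the double knockdown, against 9.68% to 15.6% in siGFP. With those genes left out and the rest rescaled the medians were -0.33 after siPTBP1 and -0.26 in the double knockdown, with Srsf11 positive in the double knockdown. The 10 pluripotency markers were also all below siGFP in NP, with medians of -0.45 after siPTBP1 and -0.41 in the double knockdown. Unlike the lower values of the 10 genes after siPTBP1, the lower level of the markers extended to CY as a sum, but not for every marker. Pou5f1 had a higher mean there, 1498 TPM in siPTBP1 and 1669 TPM in the double knockdown, against 1448 TPM in siGFP. Nanog had a lower one, 98.55 TPM in siPTBP1 and 77.75 TPM in the double knockdown, against 137.8 TPM in siGFP. Marker sums in CY were 3514 to 4115 TPM in siPTBP1 and 3617 to 4165 TPM in the double knockdown. In CY of siGFP they were 4406 to 4739 TPM. The part of the markers in the result was not tested.

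**Figure D3:**
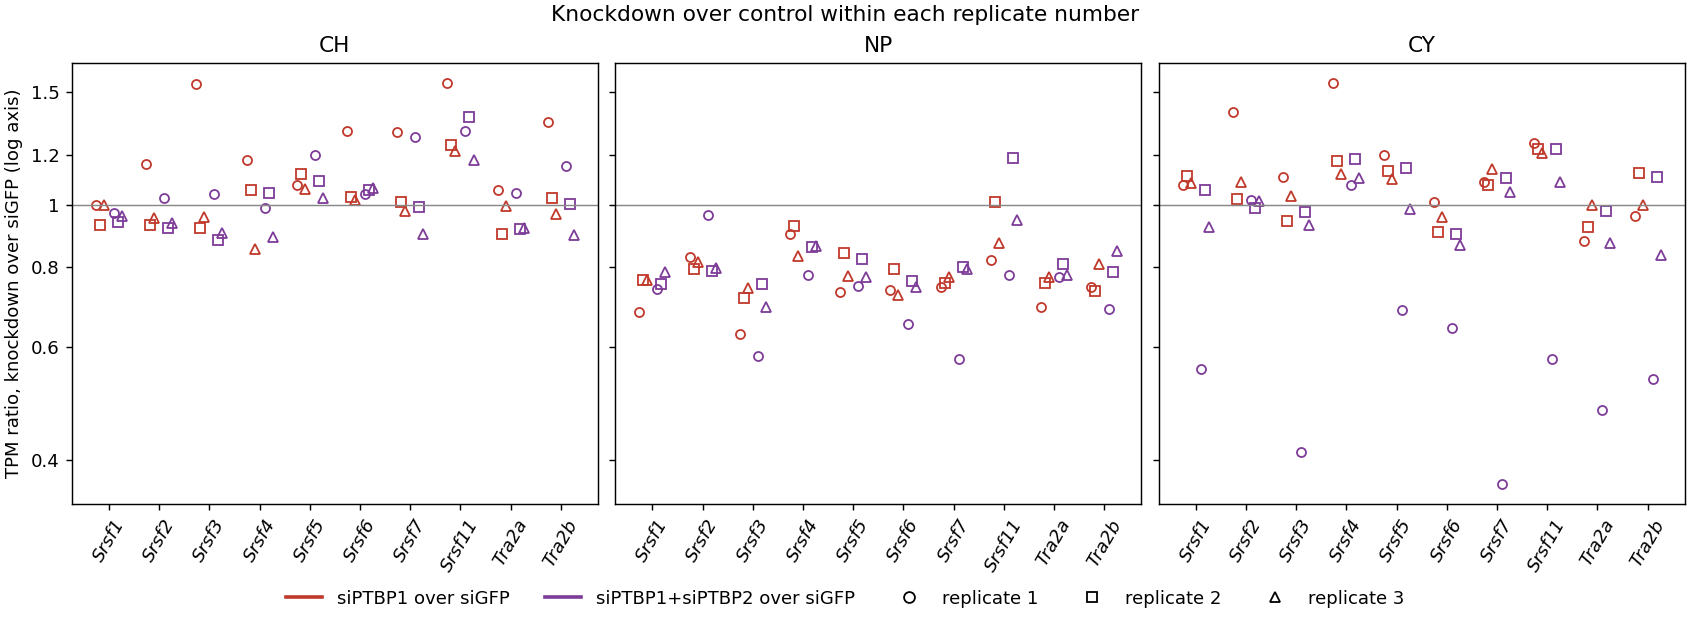
Ratio of knockdown TPM to siGFP TPM of the same replicate number for each gene, in panels for CH, NP and CY, with a line at 1. In NP 29 of 30 ratios lay below 1 in each knockdown, and in CY the replicate 1 ratios of the double knockdown lay below 1 for 8 of the 10 genes, all but Srsf2 and Srsf4.

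Chromatin and cytoplasm showed no such common sign. In CH the median difference was 0.12 after siPTBP1, with 8 of 10 positive, and -0.01 in the double knockdown, with 5 of 10 positive. Of all genes 63.5% were positive there after siPTBP1 and 61.1% in the double knockdown. Genes averaging at least 50 TPM had medians of 0.06 after siPTBP1 and 0.01 in the double knockdown. Without the replicate 1 libraries the siPTBP1 median was -0.03. Srsf11 had 290.39, 643.14 and 664.4 TPM in CH of siPTBP1 and 244.36, 710.62 and 643.01 TPM in CH of the double knockdown, against 187.21, 517.65 and 546.34 TPM in CH of siGFP. Every knockdown library exceeded the siGFP library of its number, while the groups overlapped. The difference was 0.41 after siPTBP1 and 0.36 in the double knockdown, and with the block the adjusted p was 0.289 for siPTBP1 and 0.384 for the double knockdown.

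In CY the median was 0.13 after siPTBP1, with 8 of 10 positive, and -0.03 with 4 of 10 positive under median-ratio scaling. It was -0.31 in the double knockdown, with 8 of 10 negative. The double knockdown's replicate 1 library held 769 TPM over the 10 genes, against 2265 and 2485 TPM in its replicates 2 and 3. Leaving out that library alone turned all 10 values positive, 0.05 for Srsf6 to 0.66 for Srsf11. That fit kept the siGFP replicate 1 library, which was also low at 1159 TPM over the 10 genes. Leaving out the replicate 1 libraries of every group gave a median of -0.01. The double knockdown minus siPTBP1 had 10 of 10 negative values in CY with a median of -0.34, which was -0.07 without the replicate 1 libraries. Of all genes 35% were positive in that comparison. Genes averaging at least 50 TPM had a median of -0.11, which was -0.02 without the replicate 1 libraries. No member was called between the knockdowns in any fraction, beside 0.107% of all genes in CH, 0.00485% in NP and 0% in CY, and without the block none had an unadjusted p under 0.05. With the block, where 0.0825% of all genes were called in CH and 0.00485% in each of NP and CY, no member was called either, and in CY Srsf7 and Srsf11 had unadjusted p-values under 0.05.

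Whether the distribution over fractions changed with knockdown was tested as the difference of differences. No member was called by limma in the 6 such comparisons, with or without the block, and without it none had an unadjusted p under 0.05. With the block Srsf6 (adjusted p = 0.529) and Srsf11 (adjusted p = 0.631) passed the unadjusted threshold for CH minus NP in siPTBP1 by limma, Srsf4 (adjusted p = 0.968) for NP minus CY in siPTBP1, and Srsf6 (adjusted p = 0.643) for CH minus NP in the double knockdown. Of all genes 0.0582% were called for CH minus NP, 0.0437% for CH minus CY and 0.00485% for NP minus CY in siPTBP1, and 0.034% for CH minus NP, 0.0582% for CH minus CY and 0.00485% for NP minus CY in the double knockdown. With the block these shares were 0.16%, 0.194% and 0.00485% in siPTBP1 and 0.16%, 0.383% and 0.00485% in the double knockdown. For siPTBP1 against siGFP the change of CH minus NP was positive in 10 of 10 with a median of 0.49, beside 62.4% of all genes positive, an all-gene median of 0.10 and one of 0.16 for genes averaging at least 50 TPM. The change of NP minus CY was negative in 10 of 10 with a median of -0.51, beside 34.4% of all genes positive and medians of -0.09 over all genes and -0.22 over genes averaging at least 50 TPM. Under median-ratio scaling the medians of the 10 were 0.30 for CH minus NP and -0.24 for NP minus CY, with the signs kept. The smallest unadjusted p-values without the block were 0.282 and 0.131. In the double knockdown the change of CH minus NP was positive in 10 of 10, beside 63.5% of all genes. Its median was 0.40, against 0.15 for genes averaging at least 50 TPM. The change of NP minus CY was negative in 8 of 10, beside 43.5% of all genes positive. Its median was -0.10, against -0.13 for genes averaging at least 50 TPM. That median of the 10 was 0.02 under median-ratio scaling and -0.35 without the replicate 1 libraries. These values contain the lower NP levels already given. The different numbers of calls per treatment in the fraction comparisons were thus not shown to be a difference between treatments.

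The 4 related lists gave the surroundings of these genes in CH minus CY of siGFP, where 57.9% of all genes were called higher and 8.08% lower, with a median of 0.95. With the block these shares were 65.4% and 11.5%, under median-ratio scaling 45.3% and 15.8%, and under quantile scaling 23.9% and 31.2%. Of 21 other SR and SR-related proteins 16 were called higher in CH and 3 lower, with a median of 1.89. Srek1, an SR-related regulator, had 3.81 (adjusted p = 1.6e-05) and Srrm2, a scaffold of speckles, had 3.42 (adjusted p = 1.15e-08). Srsf9 was the lowest at -0.94 (adjusted p = 0.00773), with 120.21, 58.19 and 61.31 TPM in CH, against 142.34, 152.27 and 143.7 TPM in CY, and the exon junction factor Rnps1 had -0.43 (adjusted p = 0.0272). Of 10 genes for kinases, a phosphatase and an importer of SR proteins 7 were called higher and 1 lower, with a median of 1.93. Clk4 (4.20, adjusted p = 2.94e-06) and Clk1 (3.70, adjusted p = 2.41e-06), kinases of SR proteins known for detained introns, led them, and the phosphatase subunit Ppp1ca was lower at -1.58 (adjusted p = 0.00129). Clk1 had 130.77, 337.13 and 291.99 TPM in CH, against 11.46, 17.72 and 24.32 TPM in CY. The kinase Dyrk1a, at 0.63, was not called (adjusted p = 0.0854) unless with the block (adjusted p = 0.0112), and changed sign under both other scalings.

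Of 15 factors of nonsense-mediated decay and the exon junction complex 9 were called higher and 3 lower, with a median of 0.97, close to the 57.9% and 0.95 of all genes, under median-ratio scaling 6 higher and 5 lower, and under quantile scaling 4 of each. Upf3b (2.78) and the kinase Smg1 (2.74) were highest, and the junction proteins Magoh (-2.23) and Magohb (-1.27) were lowest. Of 10 factors that export spliced mRNA 4 were called higher and 2 lower, with a median of -0.15, 3 higher and 6 lower under median-ratio scaling, and 4 higher and 5 lower with the block. Thoc2 (3.93) and the export receptor Nxf1 (1.99) were highest, and the receptor's partner Nxt1 (-1.54) was lowest. Sarnp (-1.11) was not called (adjusted p = 0.0595) unless with the block (adjusted p = 3.07e-05). No gene of the 4 lists was called in NP between siPTBP1 and siGFP without the block, where the medians were -0.20 for other SR proteins, -0.08 for the kinase list (0.02 under median-ratio scaling), -0.24 for decay factors and -0.15 for export factors.

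**Figure D4:**
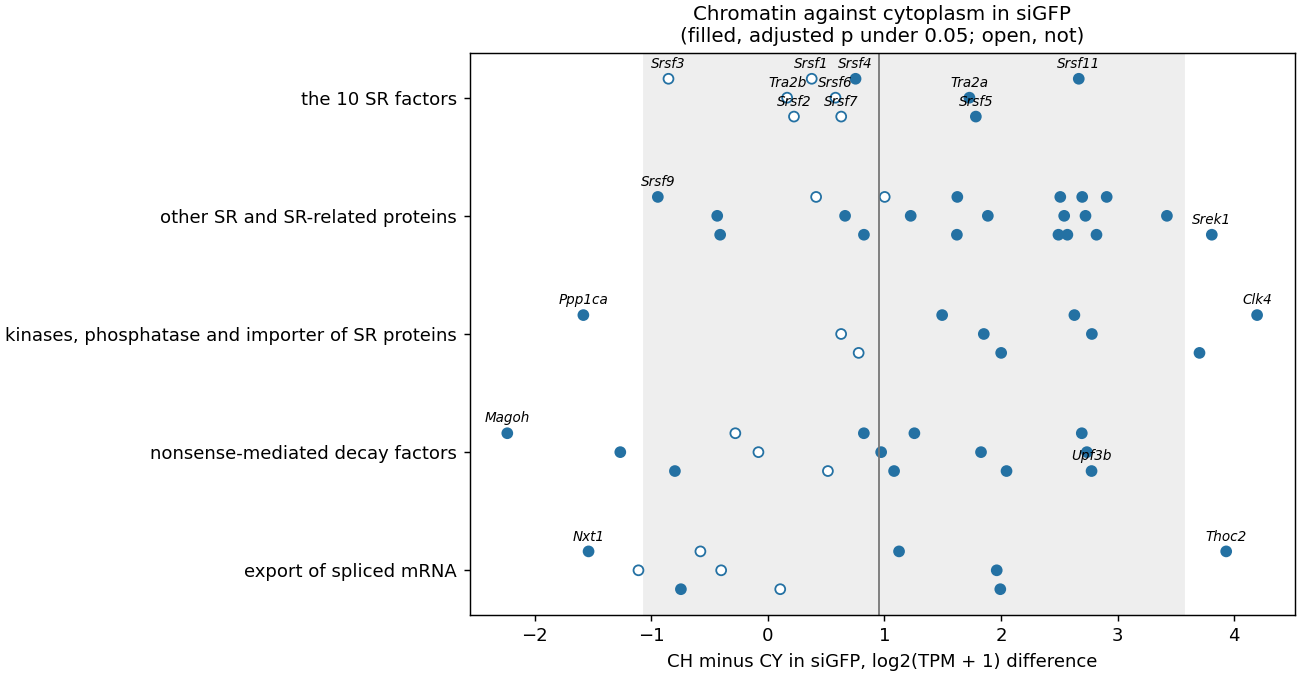
CH minus CY in siGFP on the log2(TPM + 1) scale for the 10 SR factor genes and the 4 related lists, 1 point a gene, filled where adjusted p was under 0.05, with a line at the all-gene median of 0.95 and a grey band for the 5th to 95th percentile of all genes. Clk4, Thoc2, Srek1 and Clk1 lay above the band and Magoh, Ppp1ca, Nxt1, Magohb and Sarnp below it, and all 10 SR factor genes lay within it.

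Across the 27 libraries the genes fell into patterns, described here without a test because the libraries share fractions, treatments and replicate numbers. Of the 45 pairs of members the highest Pearson correlations of log2(TPM + 1) were Srsf5 with Tra2a (0.974), Srsf5 with Srsf11 (0.965), Srsf11 with Tra2a (0.961) and Srsf6 with Srsf7 (0.952). The lowest were Srsf3 with Srsf11 (0.118) and Srsf3 with Srsf5 (0.176). Among 11300 other genes averaging at least 5 TPM, those most like Srsf11 were Secisbp2l (0.994), Zc3h11a (0.993) and Rsrc2 (0.993). Those most like Srsf3 were Ybx1 (0.981), Bccip (0.979) and Utp3 (0.974).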

How the data were processed

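The authors deposited a table of TPM per gene for 27 libraries. Per the labels' protocols, RNA was extracted with Trizol and polyA+ libraries were made with a stranded Illumina kit. Per the submitters' processing notes, STAR and kallisto were used with mm10; their versions, the annotation release and the strand setting are not given in the sources used here. TPM keeps no depth, so no counting interval is given, and p-values measure the spread between the deposited replicates.

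The tested genes (1 TPM or more in 3 or more libraries) were fitted on log2(TPM + 1), a scale that understates changes of low genes, with limma 3.58.1 in R 4.3.3 (trend and robust settings, two-sided, 18 residual degrees of freedom, 9 group means). The script was tested on simulated data. Groups were taken from the labels. The members and lists were chosen with earlier results of these data known. All 10 members, Ptbp1 and Ptbp2 are named, with the 3 genes most like the highest and lowest member and, from each related list, the extremes of CH minus CY.

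The replicate numbers were taken as pairing the samples: in the 108 same-numbered pairs of libraries the deviations from group means correlated at 0.13 or more (median 0.365), and 27 of 27 libraries correlated best with their own number. The pairing comes from the data, not the labels. An alternative fit had the number as a block (16 residual degrees of freedom). Other alternatives were other scalings, pseudocounts, filters and left-out libraries. Coordinates and sequences are from GENCODE M21 (GRCm38).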

Additional observations from a re-analysis of the deposited data

How the results depend on the processing

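With replicate number as a block the members called were 7 for NP minus CY and 7 for CH minus CY in siPTBP1, 3 for NP minus CY in the double knockdown, and 1 for NP minus CY, 7 for CH minus CY and 7 for CH minus NP in siGFP. Median-ratio scaling gave 1 for NP minus CY and 3 for CH minus NP in siPTBP1, 1 for NP minus CY and 3 for CH minus NP in the double knockdown, and 1 for CH minus NP in siGFP. Quantile scaling gave 1 and 4 in siPTBP1 for the same 2 comparisons, 1, 3 and 3 for NP minus CY, CH minus CY and CH minus NP in the double knockdown, and 2 for CH minus CY and 1 for CH minus NP in siGFP. Fitting the groups compared alone gave 1 for NP minus CY in siPTBP1 and 3 for CH minus CY in the double knockdown. Rescaling without Mir6236, chosen after seeing the data, gave 1 for NP minus CY in siPTBP1.

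Without the replicate 1 libraries 6 and 7 were called for NP minus CY and CH minus CY in siPTBP1, 5 for NP minus CY in the double knockdown, and 3, 7 and 7 for NP minus CY, CH minus CY and CH minus NP in siGFP. Leaving out 1 library at a time gave 2 to 4 for CH minus CY and 5 to 7 for CH minus NP in siPTBP1, and 0 to 3, 3 to 6 and 4 to 7 for NP minus CY, CH minus CY and CH minus NP in the double knockdown. The 3 for NP minus CY came without its CY replicate 1, and the 3 for CH minus CY without that library or without its CH replicate 2 or 3. In siGFP the range was 2 to 5 for CH minus CY, with 2 when CY replicate 1 was left out, and 1 to 7 for CH minus NP. NP minus CY stayed at 0 to 0 in siPTBP1 and siGFP, as did every comparison of siRNAs. Srsf4 in CH minus CY of the double knockdown reversed to -0.19 under median-ratio scaling (adjusted p = 0.332) and -0.16 under quantile scaling (adjusted p = 0.433). The cause of these changes was not tested. All-gene shares are not given here for most of these fits, so the counts alone do not set the members apart from other genes. Another pseudocount, no filter or a stricter one, plain limma settings and rescaling without mitochondrially encoded genes, the last chosen after seeing the data, kept each count of members called within 1.5 times. TPM gives no depth, so what depth limits could not be stated.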
